A study of Bos taurus with 10 samples.

Results

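The cytochrome P450 and aldehyde oxidation enzymes of bovine liver were taken as every gene whose only symbol in the platform annotation began with CYP, ADH or ALDH in the numbering of these families, together with POR, EPHX1 and EPHX2. CYP7A1, CYP7B1, CYP8B1, CYP27A1, CYP51A1, CYP4A11, CYP4A22 and ALDH9A1 were left out. This gave 41 genes of 9155 with a single symbol, read by 59 of the 24016 probe sets tested, and each gene was read at its probe set of highest mean over the 10 arrays. Of the 41 genes, 20 were P450s, 4 alcohol dehydrogenases and 14 aldehyde dehydrogenases.

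The animals were female Holstein cows in week 5 of lactation, and the array was the Affymetrix bovine genome chip, hybridised with liver biopsy RNA. In the CLA group, 20 cows received rumen-protected conjugated linoleic acid, a fatty acid whose isomers carry 2 double bonds separated by a single bond. In the control group, 20 cows received a rumen-protected control fat. Either fat made up 27.3% of a supplemental concentrate given at 630 g of dry matter per day between week 3 before and week 14 after calving, on top of the same ration and individually allotted concentrate. Each pool held RNA of 4 cows, so a group consisted of 5 CLA pools or 5 control pools with 1 array each, and the spread between pools is a spread between averages of 4 cows.

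Cytochrome P450s are haem enzymes that insert an oxygen atom into drugs, steroids, vitamins and fatty acids. In the endoplasmic reticulum they draw electrons from a common reductase, POR. Alcohol dehydrogenases turn alcohols into aldehydes, aldehyde dehydrogenases turn aldehydes into acids, and epoxide hydrolases open the epoxides that P450s produce. The liver is the main site of these reactions in the body, and linoleic and arachidonic acids are themselves substrates of several P450s.

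Values are log2 expression, and differences are CLA minus control on that scale with the standard error (SE) of limma, a linear model with a spread moderated across probe sets. The array medians did not overlap between groups, at 5.79 to 5.82 in CLA pools and 5.83 to 5.85 in control pools (exact two-sided permutation p = 0.0079, the smallest that 252 groupings allow). Any pair of arrays correlated between 0.988 and 0.996 across probe sets, and CLA pool 2 and control pool 4 stood farthest from the others. All 11 measured hepatocyte markers, ALB and TTR among them, lay outside the dimmest 30% of probe sets. Their summed linear signal ran from 185000 to 192000 in CLA pools and from 180000 to 186000 in control pools, with 8 of 11 higher in the CLA group. For T and NK lymphocytes, 11 of 12 markers were lower in the CLA group, none was among the dimmest 30%, and their sum ran from 994 to 1210 in CLA pools and from 1080 to 1520 in control pools. Most markers were also lower for B (3 of 4), Kupffer (7 of 9), endothelial (5 of 9), erythroid (5 of 6) and skeletal muscle cells (5 of 7). Most were higher for stellate cells (7 of 10) and cholangiocytes (3 of 5). Of all genes, 46% were higher. The part of these markers in the results below was not tested. A biopsy also holds several cell types, so fewer cells of a type and less RNA per cell cannot be told apart.

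The comparison asked which of these enzymes differed with CLA feeding. No gene passed the test over all probe sets: limma with Benjamini-Hochberg adjustment called 0 of 41 genes at an adjusted p under 0.05, against 0% of all 9155 genes, and the lowest adjusted p was 0.328. At an unadjusted p under 0.05 there were 4 of 41 genes (9.76%), against 8.5% of all genes. Those higher in the CLA group were CYP2C23 and ALDH7A1, where 4.35% of all genes were called in that direction. CYP17A1 and ALDH1L2 were lower, where 4.15% of all genes were. The share among the oxidation enzymes was thus near the background. The groups did not overlap for 2 of the 41 genes, CYP2C23 and CYP17A1 (4.88%), against 2.17% of all genes. For all genes, this share was 1.47% with the CLA pools above and 0.699% with them below.

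Differences of the whole set were small. By sign 20 genes were higher, 20 lower and CYP20A1 stood at 0.00, and the median difference was 0.00, beside -0.01 over all genes. The median size of a difference, whichever its sign, was 0.06, beside 0.08 over all genes. Subtracting array medians moved the split to 29 higher and 12 lower, and it moved the median over all genes to 0.02 as well. With quantile normalization the split stayed close, at 20 and 21, as with cyclic loess normalization, at 19 and 22. The 95% interval of the difference stayed within 1.3-fold either way for 29 of the 41 genes and within 1.5-fold for 37. The 4 genes whose intervals reached past 1.5-fold were CYP2C89, CYP2B6, CYP11A1 and CYP17A1. For CYP17A1 (-0.635 to -0.193) this came from the size of its difference, since its interval was narrower than that of CYP1A2 (-0.304 to 0.528).

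**Figure D1:**
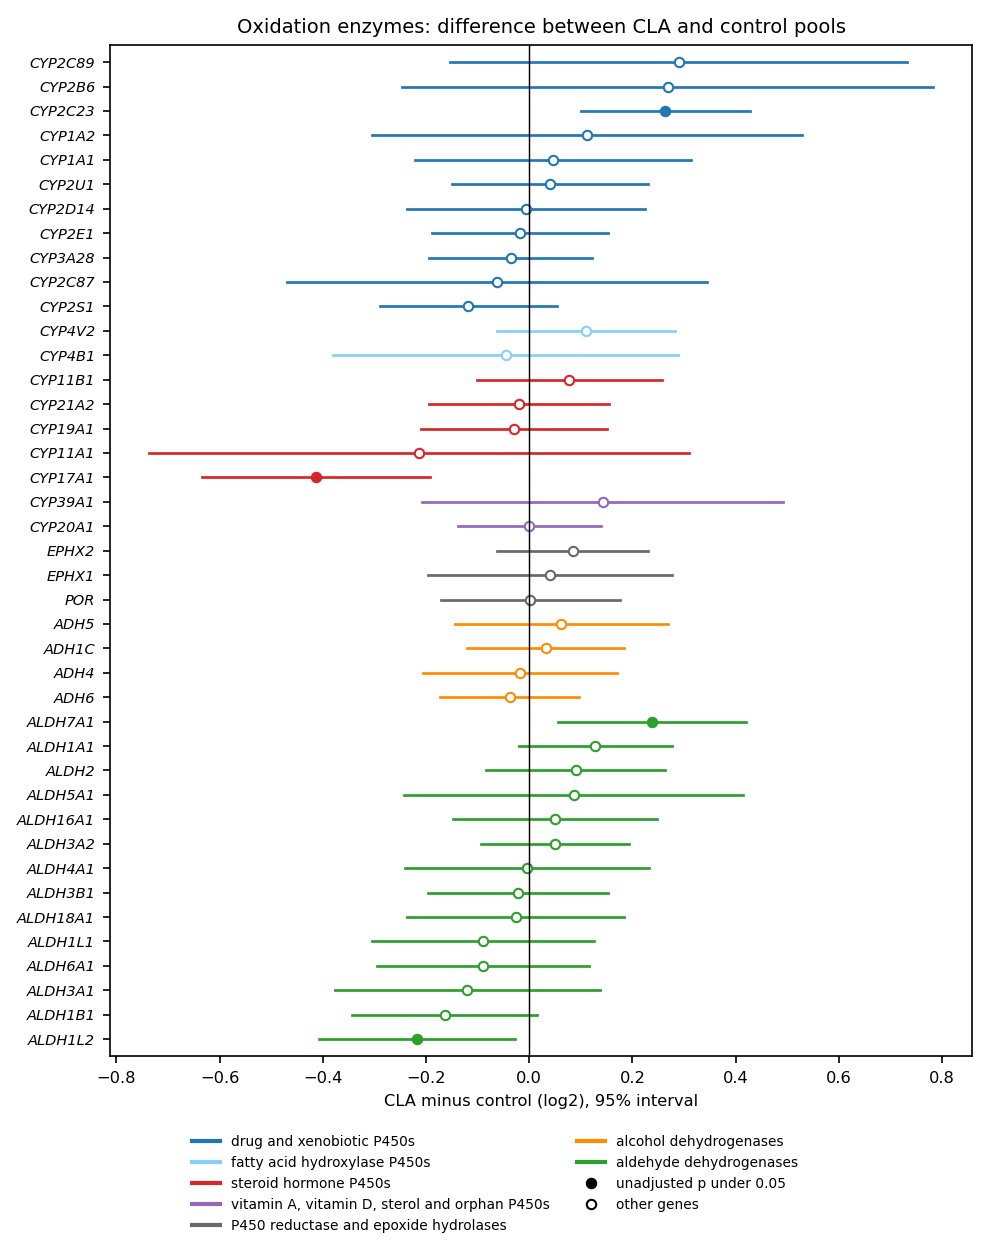
Difference between CLA and control pools for each of the 41 genes, on the log2 scale along the horizontal axis, with the 95% interval of limma as a line and the colour giving the enzyme class. The intervals of CYP2C23, ALDH7A1, CYP17A1 and ALDH1L2 leave out 0 before adjustment, and the widest are those of CYP11A1, CYP2B6 and CYP2C89.

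Among 11 P450s of the drug and xenobiotic families, which oxidise foreign compounds and several lipids, 6 were higher and 5 lower in the CLA group, with a median difference of 0.04. CYP2C23 belongs to the CYP2C family, and in the rat the enzyme of that name makes epoxides of arachidonic acid. It read 13.49, 13.52, 13.49, 13.42 and 13.58 in CLA pools 1 to 5, against 13.29, 13.01, 13.36, 13.27 and 13.25 in control pools 1 to 5. Every CLA pool lay above every control pool, and control pool 2 was the lowest. The means were 13.50 ± 0.058 in CLA pools and 13.24 ± 0.13 in control pools (SD, n = 5 each), a difference of 0.26 ± 0.076 SE or 1.20-fold (limma, unadjusted p = 0.00434, adjusted p = 0.381). Leaving out single pools gave 0.21 to 0.30, the lowest without control pool 2.

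CYP2C89 had the largest difference of the class, but its groups overlapped through a pool on each side. It read 11.45, 10.48, 11.04, 11.14 and 11.00 in CLA pools 1 to 5, against 10.35, 10.70, 10.55, 11.43 and 10.63 in control pools 1 to 5. CLA pool 2 lay among the control pools, and control pool 4 lay among the CLA pools. These are the arrays farthest from the rest. The difference was 0.29 ± 0.20 SE (limma, unadjusted p = 0.179, adjusted p = 0.720), and leaving out CLA pool 2 gave 0.43, leaving out control pool 4 gave 0.47 and leaving out CLA pool 1 gave 0.18. Without both CLA pool 2 and control pool 4 it was 0.60 ± 0.11 SE (limma, unadjusted p = 0.000335, adjusted p = 0.490). As these are the pools through which the groups overlapped, leaving them out had to enlarge the difference, and this p adds no support. The dimmer probe set of the gene differed by 0.15 ± 0.17 SE.

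The third gene of that family, CYP2C87, which RefSeq (assembly ARS-UCD2.0) places close to CYP2C89, did not share this pattern and was singled out after its values were seen. It read 7.20, 7.47, 6.97, 6.30 and 6.89 in CLA pools 1 to 5, against 6.87, 7.34, 6.75, 7.15 and 7.03 in control pools 1 to 5. CLA pool 2 was the highest and CLA pool 4 the lowest of all pools, and the difference was -0.06 ± 0.19 SE. Probes of one CYP2C gene may also bind transcripts of its relatives, so values of the 3 genes are uncertain to that extent.

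CYP2B6, a drug-metabolising P450 induced through nuclear receptors, varied most between pools within this class. It read 10.75, 11.03, 10.19, 10.21 and 10.77 in CLA pools 1 to 5, against 10.68, 9.45, 10.45, 10.71 and 10.32 in control pools 1 to 5. Control pool 2 was far below all the others, and the remaining pools of the groups overlapped. The difference of 0.27 ± 0.24 SE (limma, adjusted p = 0.782) was 0.05 without control pool 2 and 0.16 without CLA pool 2.

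CYP1A1 and CYP1A2, neighbours in the genome and both induced through the aryl hydrocarbon receptor, differed by 0.05 ± 0.12 SE and 0.11 ± 0.19 SE. CYP1A2 was singled out for its spread: it was lowest in control pool 5, at 10.46, where CYP1A1 at 12.27 was among its higher values. CYP2E1, which oxidises ethanol and acetone, read 13.51 to 13.83 in CLA pools and 13.58 to 13.80 in control pools, a difference of -0.02 ± 0.078 SE (95% interval -0.19 to 0.15). CYP3A28, a bovine P450 of the main drug-oxidising family, differed by -0.04 ± 0.073 SE. CYP2D14 differed by -0.01 ± 0.11 SE at a probe set that the manufacturer's suffix marks as shared by several transcripts. CYP2U1 differed by 0.04 ± 0.087 SE and CYP2S1 by -0.12 ± 0.079 SE.

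**Figure D2:**
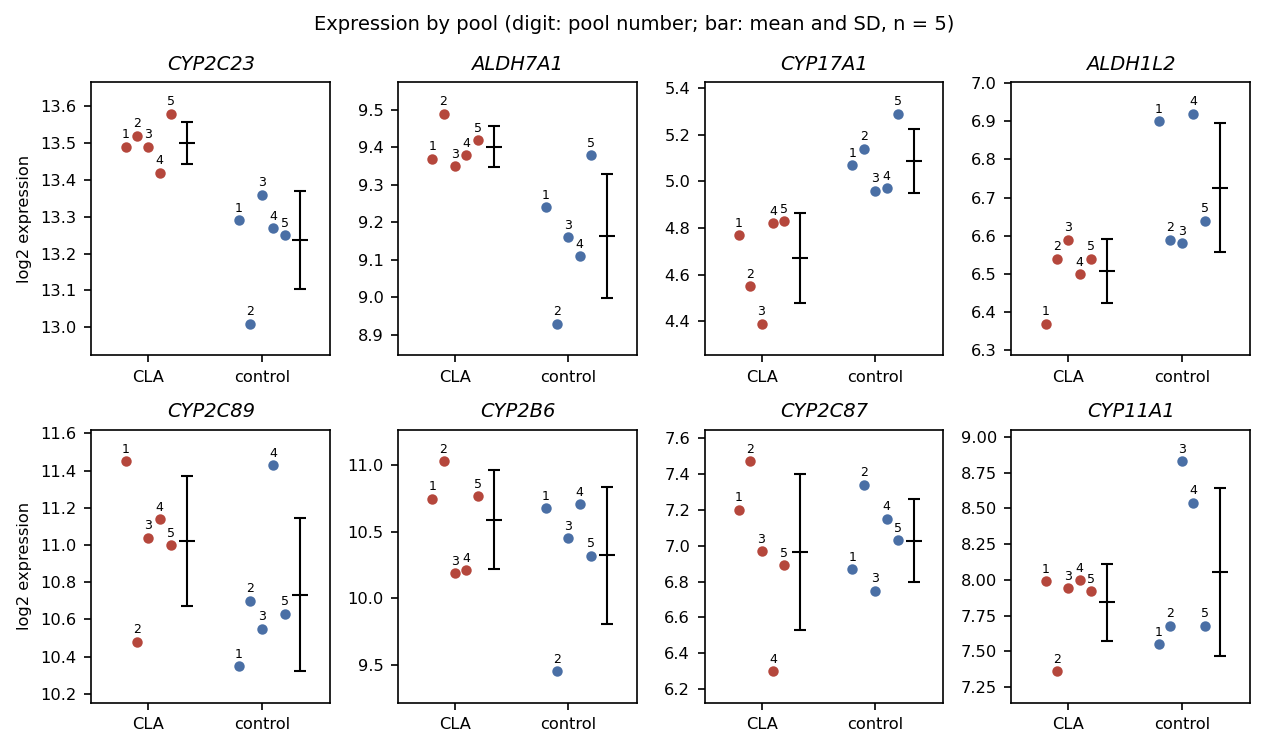
Log2 expression of 8 genes in each pool, with CLA pools at the left and control pools at the right of each panel, the pool number above each point, and the mean with its SD beside the points (n = 5 per group). The groups separate for CYP2C23 and CYP17A1, while CLA pool 2 and control pool 4 sit in the range of the opposite group for CYP2C89.

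The fatty acid hydroxylases of family 4 had 2 members. CYP4V2, an omega-hydroxylase of fatty acids in humans, read 12.56, 12.36, 12.58, 12.58 and 12.58 in CLA pools 1 to 5, against 12.45, 12.37, 12.23, 12.53 and 12.53 in control pools 1 to 5. CLA pools other than pool 2 lay above every control pool, by 0.03 or a little more. The difference was 0.11 ± 0.079 SE (limma, unadjusted p = 0.189), 0.15 without CLA pool 2 and 0.06 without control pool 3. Other probe sets of CYP4V2 differed by 0.04 ± 0.49 SE, which is imprecise, and by -0.04 ± 0.068 SE. CYP4B1 differed by -0.05 ± 0.15 SE.

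Of 5 P450s of steroid hormone synthesis, which work mainly in the adrenal gland and gonads, 4 were lower in the CLA group and 1 higher, with a median of -0.03. CYP17A1, the hydroxylase and lyase on the way to cortisol and androgens, had the largest difference of all 41 genes. It read 4.77, 4.55, 4.39, 4.82 and 4.83 in CLA pools 1 to 5, against 5.07, 5.14, 4.96, 4.97 and 5.29 in control pools 1 to 5. Every CLA pool lay below every control pool, and CLA pools 2 and 3 were the lowest. The means were 4.67 ± 0.19 in CLA pools and 5.09 ± 0.14 in control pools (SD, n = 5 each), a difference of -0.41 ± 0.10 SE or 0.751-fold (limma, unadjusted p = 0.00151, adjusted p = 0.328). Without single pools the difference lay between -0.45 and -0.34. The gene is read by 1 probe set, whose signal was in the lower part of the array although above the dimmest 30%.

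CYP11A1, which cleaves the side chain of cholesterol as the opening step of steroid synthesis, had the largest spread of all 41 genes within groups. It read 7.99, 7.36, 7.94, 8.00 and 7.92 in CLA pools 1 to 5, against 7.55, 7.68, 8.83, 8.54 and 7.68 in control pools 1 to 5. Control pools 3 and 4 stood above all others and CLA pool 2 below all others. The difference was -0.21 ± 0.24 SE (limma, adjusted p = 0.836), and it was -0.02 without control pool 3, -0.09 without control pool 4 or CLA pool 2, and -0.34 without control pool 1. CYP11B1, CYP19A1 (aromatase) and CYP21A2 (the hydroxylase that cortisol and aldosterone synthesis share) differed by 0.08 ± 0.082 SE, -0.03 ± 0.083 SE and -0.02 ± 0.080 SE. The CYP21A2 probe set was among the dimmest 30%.

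CYP39A1, which hydroxylates an oxysterol, and CYP20A1, a P450 without an established substrate, were the remaining P450s. CYP39A1 read 8.61, 9.11, 8.63, 8.32 and 8.29 in CLA pools 1 to 5, against 8.49, 8.38, 8.76, 8.55 and 8.07 in control pools 1 to 5. CLA pool 2 was the highest and control pool 5 the lowest, and the groups overlapped. The difference was 0.14 ± 0.16 SE, and 0.01 without CLA pool 2. CYP20A1 lay between 8.61 and 8.69 in CLA pools and between 8.50 and 8.73 in control pools, one of the narrowest ranges of the set.

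The partners of the P450s differed little. POR, the electron donor, read 10.43, 10.50, 10.21, 10.19 and 10.26 in CLA pools 1 to 5, against 10.38, 10.29, 10.29, 10.41 and 10.21 in control pools 1 to 5, a difference of 0.00 ± 0.079 SE (95% interval -0.17 to 0.18). EPHX1, the microsomal epoxide hydrolase, ran from 12.36 to 12.84 in CLA pools and from 12.20 to 12.68 in control pools, with a difference of 0.04 ± 0.11 SE. EPHX2, the soluble hydrolase that acts on fatty acid epoxides, ran from 12.18 to 12.30 in CLA pools and from 12.01 to 12.22 in control pools. Its difference was 0.08 ± 0.068 SE (limma, unadjusted p = 0.237), while its other probe set, among the dimmest 30%, differed by -0.16 ± 0.086 SE. The sign of POR and EPHX1 changed with single pools left out and with the scaling.

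The 4 alcohol dehydrogenases lie next to each other in RefSeq, with at most 1 other coding gene between neighbours, and all had differences near 0. ADH5, which also clears formaldehyde with glutathione, read 10.32, 10.33, 10.42, 10.33 and 10.14 in CLA pools 1 to 5, against 9.95, 10.41, 10.23, 10.41 and 10.23 in control pools 1 to 5. Its difference of 0.06 ± 0.095 SE had an interval of -0.14 to 0.27, and it was -0.01 without control pool 1, the lowest pool. ADH6 read 13.77 to 13.80 in CLA pools and 13.75 to 13.96 in control pools, where only control pool 4 was above 13.80, and it differed by -0.04 ± 0.062 SE. ADH4 and ADH1C differed by -0.02 ± 0.086 SE and 0.03 ± 0.070 SE. For ADH4 the CLA pools spanned 12.69 to 13.17 and the control pools 12.87 to 12.96, so 2 CLA pools lay above and 3 below all control pools.

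Among 14 aldehyde dehydrogenases 6 were higher and 8 lower in the CLA group, with a median of -0.01. ALDH7A1 oxidises the semialdehyde of lysine breakdown and also betaine aldehyde. It read 9.37, 9.49, 9.35, 9.38 and 9.42 in CLA pools 1 to 5, against 9.24, 8.93, 9.16, 9.11 and 9.38 in control pools 1 to 5. Control pool 5 was inside the range of the CLA pools and the other 4 control pools were below it. The means were 9.40 ± 0.055 in CLA pools and 9.16 ± 0.17 in control pools (SD, n = 5 each), a difference of 0.24 ± 0.083 SE or 1.18-fold (limma, unadjusted p = 0.0144, adjusted p = 0.449). Its other probe sets differed the same way, by 0.29 ± 0.15 SE and 0.13 ± 0.091 SE, and neither had an unadjusted p under 0.05. Without CLA pool 2 and control pool 4 together the difference was 0.20 (unadjusted p = 0.059).

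ALDH1L2 is the mitochondrial formyltetrahydrofolate dehydrogenase of one-carbon metabolism. It read 6.37, 6.54, 6.59, 6.50 and 6.54 in CLA pools 1 to 5, against 6.90, 6.59, 6.58, 6.92 and 6.64 in control pools 1 to 5. The groups touched, since CLA pool 3 lay just above the lowest control pool, and control pools 1 and 4 were well above the rest. The means were 6.51 ± 0.083 in CLA pools and 6.73 ± 0.17 in control pools (SD, n = 5 each), a difference of -0.22 ± 0.087 SE or 0.86-fold (limma, unadjusted p = 0.0280, adjusted p = 0.510). The unadjusted p was above 0.05 without control pool 1 (0.0740), without control pool 4 (0.0731), without CLA pool 1 (0.0724), without CLA pool 2 and control pool 4 together (0.081) and with array medians subtracted (0.0552). ALDH1L1, its cytosolic counterpart, differed by -0.09 ± 0.099 SE.

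ALDH1A1, which makes retinoic acid from retinaldehyde, read 13.84, 13.97, 13.83, 13.86 and 13.79 in CLA pools 1 to 5, against 13.60, 13.80, 13.70, 13.83 and 13.72 in control pools 1 to 5. There 3 CLA pools lay above all control pools, and the difference was 0.13 ± 0.068 SE (limma, unadjusted p = 0.0838). Under the alternatives this p ran from 0.0419, with the trend and robust options, to 0.205, with cyclic loess normalization. With array medians subtracted it was 0.0434. ALDH1B1, a mitochondrial acetaldehyde dehydrogenase singled out as the nearest gene above the unadjusted threshold, read 4.81 to 4.99 in CLA pools and 4.80 to 5.21 in control pools. Its difference was -0.16 ± 0.082 SE (limma, unadjusted p = 0.0693), and control pool 1 was the lowest of all pools, below the CLA pools, while the other 4 control pools were above them. Without control pool 1 the unadjusted limma p of ALDH1B1 was under 0.05. As that pool was the lowest, leaving it out had to enlarge the difference, and this adds no support. ALDH2, the main mitochondrial enzyme for acetaldehyde, differed by 0.09 ± 0.080 SE. It was 13.83 in CLA pool 2 and between 13.40 and 13.56 in all other pools.

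The remaining aldehyde dehydrogenases differed by less than 0.13 either way. The fatty aldehyde enzyme ALDH3A2 differed by 0.05 ± 0.066 SE and its relatives ALDH3A1, among the dimmest 30%, and ALDH3B1 by -0.12 ± 0.12 SE and -0.02 ± 0.080 SE. In amino acid pathways, ALDH4A1 (proline breakdown) and ALDH18A1 (proline synthesis) differed by -0.004 ± 0.11 SE and -0.03 ± 0.097 SE, and ALDH6A1 (valine breakdown) by -0.09 ± 0.095 SE. ALDH16A1 differed by 0.05 ± 0.091 SE. ALDH5A1, which clears succinic semialdehyde, was 7.65, 6.91, 7.34, 7.38 and 7.19 in CLA pools 1 to 5, against 7.35, 7.04, 6.99, 7.63 and 7.03 in control pools 1 to 5. As for CYP2C89, CLA pool 2 was low and CLA pool 1 and control pool 4 were high, a likeness seen after the values were known. The ALDH5A1 difference was 0.09 ± 0.15 SE.

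The P450s held the genes that varied most from pool to pool. The ratio of the highest to the lowest pool was over 2-fold for 6 of the 41 genes (14.6%), against 6.58% of all genes, and all 6 were P450s. The ratios were 2.99 for CYP2B6, 2.77 for CYP11A1, 2.25 for CYP2C87, 2.14 for CYP2C89, 2.08 for CYP1A2 and 2.06 for CYP39A1. Of the 18 alcohol and aldehyde dehydrogenases none exceeded it, and the highest ratio was 1.67 (ALDH5A1). The median ratio over the 41 genes was 1.39, as over all genes. This is a description with no test, and the pools at the extremes differed between genes. CLA pool 2 was the highest pool, ties included, for 13 of the 41 genes (31.7%), while it was the highest for 24.4% of all genes. Control pool 4 was the highest for 7 of 41 (17.1%), beside 18.6% of all genes. Over the 11 drug and xenobiotic P450s, the mean deviation from the average of the 10 pools was 0.16 in CLA pool 1 and between -0.02 and 0.04 in the other CLA pools. Among the control pools it was 0.21 in control pool 4 and between -0.11 and -0.09 in the others.

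**Figure D3:**
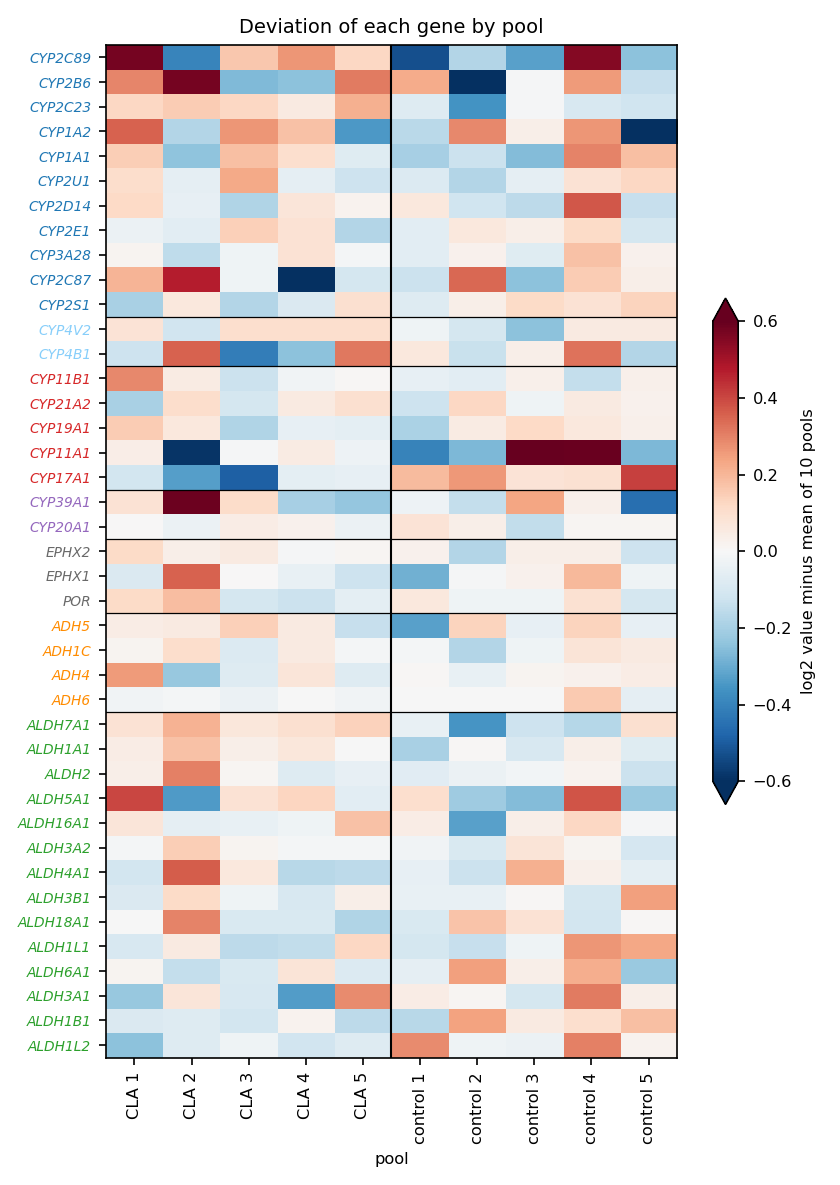
Deviation of each gene from its own mean over the 10 pools (log2, colour, shown up to 0.6 either way), with genes as rows by enzyme class, coloured as classes, and CLA pools left of control pools. CYP2C89 and ALDH5A1 are high in CLA pool 1 and control pool 4 and low in CLA pool 2, and CYP11A1 is high in control pools 3 and 4.

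For 13 of the 41 genes the array held more than 1 probe set. Of the 18 further probe sets, 9 had the sign of the one used and 7 the opposite sign. A further set of CYP1A1 differed by 0.00, and 1 belonged to CYP20A1, whose used set stood at 0.00. None of the 18 had an unadjusted p under 0.05, and 8 were among the dimmest 30%. The dim set of ADH1C differed by 0.26 ± 0.12 SE, and the further set of ADH5, which varied widely, by 0.36 ± 0.33 SE. CYP1A2 differed by -0.11 ± 0.11 SE at its dimmer set.

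**Figure D4:**
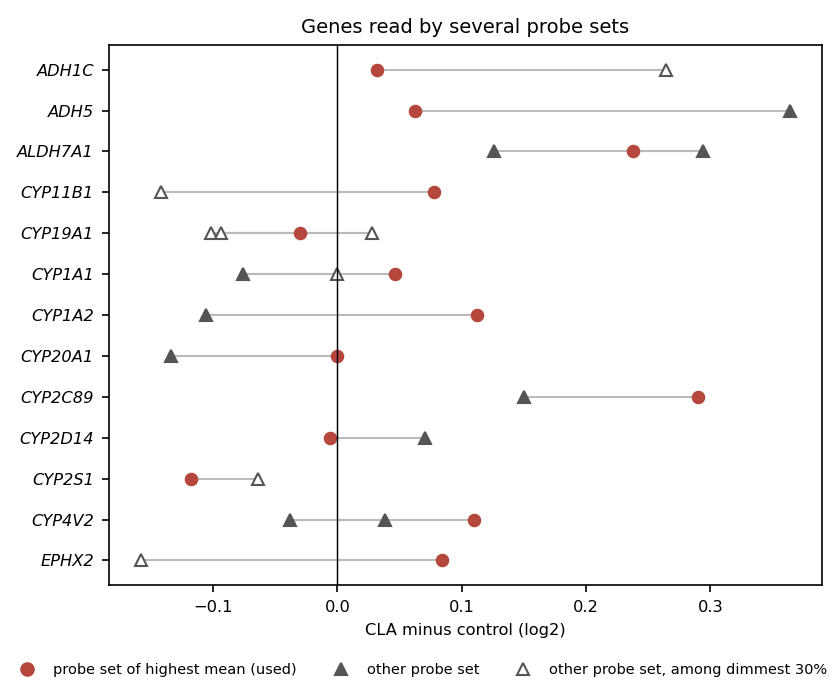
Difference between CLA and control pools (log2, horizontal axis) at each probe set of the 13 genes with more than 1, with a circle for the set used and triangles for the others, open where they are among the dimmest 30%. All 3 sets of ALDH7A1 lie above 0, while EPHX2, CYP1A2 and CYP11B1 have sets on both sides of it.

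Genes around these enzymes were read in 4 lists, and 68 of the listed genes were measured. Limma with Benjamini-Hochberg adjustment called 0 of the 68, and 6 had an unadjusted p under 0.05, 4 higher and 2 lower (8.82%, beside 8.5% of all genes). The median difference was -0.003.

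Of 13 conjugating enzymes, which attach methyl, sulfate or other groups to oxidised products, 2 were higher and 1 lower at an unadjusted p under 0.05. This share of 23.1%, beside 8.5% of all genes, rests on few genes. SULT2A1 was higher (limma, unadjusted p = 0.0479) and SULT2B1 lower (0.0492), both close to the threshold. TPMT, which methylates thiopurine drugs, read 8.60, 8.67, 8.80, 8.66 and 8.55 in CLA pools 1 to 5, against 8.26, 8.29, 8.37, 8.18 and 8.18 in control pools 1 to 5. Every CLA pool was above every control pool, which held for 1 of the 68 genes of the 4 lists, against 1.47% of all genes. The gap between the groups was a little narrower than the range within either. The difference was 0.40 ± 0.070 SE (limma, unadjusted p = 9.63e-05, adjusted p = 0.252), and the adjusted p lay between 0.157 and 0.565 under the alternatives.

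Of 10 electron partners and haem enzymes, 1 was higher and 1 lower at that level (20%, beside 8.5% of all genes). The higher was CYB5R4, close to the threshold (limma, unadjusted p = 0.0468), while its other probe set had the opposite sign, at -0.12. ALAS1, which makes the haem precursor that hepatic P450s need, read 11.58, 11.61, 11.40, 11.63 and 11.54 in CLA pools 1 to 5, against 11.69, 11.71, 11.80, 11.80 and 11.63 in control pools 1 to 5. The groups met at 11.63, and the difference was -0.17 ± 0.069 SE (limma, unadjusted p = 0.0265, adjusted p = 0.507). Of 14 transcription factors of drug and alcohol metabolism none reached it. ARNT, the partner of the aryl hydrocarbon receptor, came nearest at -0.15 ± 0.071 SE (unadjusted p = 0.0505). Of 31 other alcohol, carbonyl and aldehyde enzymes 1 did (3.23%). It was DHRS7, a dehydrogenase of steroids and retinoids in humans, at 0.17 ± 0.068 SE (limma, unadjusted p = 0.0301, adjusted p = 0.518).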

How the data were processed

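Per the labels, biotin-labelled RNA of 10 liver pools was hybridised to Affymetrix bovine arrays. The authors deposited normalized log2 values, 1 for each probe set on each array. Per the submitters' processing notes they used Affymetrix Expression Console 1.1 and RMA; the settings are not given in the sources used here. Values were used as deposited, without a filter. Of 24128 probe sets 112 were manufacturer's controls, and 24016 were tested. Genes were named through the platform annotation: 13292 probe sets had 1 symbol, 86 several and 10638 none. All 41 symbols are in RefSeq's gene table of assembly ARS-UCD2.0, used for names and neighbours only.

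CLA minus control was estimated in limma 3.58.1 (R 4.3.3; lmFit, then eBayes) with group as the only term and every array included. Benjamini-Hochberg adjustment ran over all 24016 probe sets, and the code was tested on simulated data. No detection calls were used, and precision is limited by the number of arrays. Whether pools shared handling days is not given in the sources used here. Pool numbers were not taken as pairs: same-numbered pools had deviations from their group means that correlated between -0.086 and 0.092.

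The genes named were, by rule, those with an unadjusted p under 0.05 or without overlap, the brightest and the most different of each class, POR, EPHX1, EPHX2, the 3 of largest spread, and the gene of smallest p in each of 4 related lists. The genes and lists were chosen with earlier results of these data known. Alternatives were each pool left out, the pool number as a block, 3 other normalizations, a filter on the dimmest 30%, array weights, trend and robust options of eBayes, averaged probe sets per gene, an adjusted p under 0.1, and the fit without CLA pool 2 and control pool 4.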

Additional observations from a re-analysis of the deposited data

Results flagged for a closer look

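Within each group of 5 pools, a value was looked at again when its gap to the nearest other pool, divided by the range of the group, exceeded 0.71. Of 90 groups of 5, 7 had such a value, where chance gives about 1 in 20. The 90 groups were not only those of the 41 genes, and the share over all genes was not counted. CLA pool 2 accounted for 5 of the 7, and it was also the highest pool for 24.4% of all genes. In that pool ALDH2 was 13.83 (13.45 to 13.56 in the other CLA pools), ALDH3A2 was 12.13 (11.97 to 12.00) and EPHX1 was 12.84 (12.36 to 12.49). CYP11A1 was low there at 7.36 (7.92 to 8.00 in the other CLA pools), as was CYP4V2 at 12.36 (12.56 to 12.58). Among control pools, ADH6 was 13.96 in control pool 4 (13.75 to 13.80 in the others) and ALDH16A1 was 8.95 in control pool 2 (9.27 to 9.40).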

How the results depend on the processing

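The count of enzyme genes and of related genes with a limma adjusted p under 0.05 was 0 under every alternative run. Over all probe sets it was 0 except without CLA pool 2 and control pool 4 together, where 1 passed (CGN1, a gene outside the set), and the cause was not tested. At an unadjusted p under 0.05, between 3 and 6 of the 41 genes were counted, where 6.56% to 9.56% of all probe sets were (7.81% without CLA pool 1, with 3 genes, and 9.06% with array weights, with 6). The median difference lay between -0.02 and 0.03. CYP2C23 (0.21 to 0.30), CYP17A1 (-0.45 to -0.34), ALDH7A1 (0.18 to 0.29) and ALDH1L2 (-0.26 to -0.17) kept their direction under all 19 alternatives. These genes were picked by unadjusted p from the same arrays, so a kept direction adds no support. For CYP2C23 and CYP17A1, whose groups did not overlap, leaving out pools could not change the sign. Some genes changed sign, CYP11A1 with its difference of -0.21 among them, and for the others the cause was not tested. POR was -0.031 after quantile normalization, -0.033 after cyclic loess normalization, -0.031 with array weights and -0.020 without CLA pool 2 and control pool 4. CYP2E1 was 0.013 with array medians subtracted, 0.006 with array weights and 0.022 without those pools, where CYP11A1 was 0.027. CLA pool 2 was the lowest pool of CYP11A1 and control pool 4 among its highest, so leaving them out had to raise its difference. EPHX1 was -0.002 after cyclic loess normalization, and EPHX2 was -0.037 with the mean of its probe sets. Leaving out single pools gave -0.043 to 0.034 for POR, -0.043 to 0.094 for EPHX1, -0.057 to 0.023 for CYP2E1 and -0.012 to 0.104 for ADH5. Of the 24 genes outside the naming rule, 17 had the opposite sign under at least 1 alternative. The difference of array medians lay between -0.0343 and -0.0268 with any pool left out. With the pool number as a block, 3 of the 41 genes had an unadjusted p under 0.05, against 9.03% of all probe sets, and ALDH1L2 did not (0.0597); 0 of 5 pools correlated best with their own number. The number of arrays limits the precision. Of the 41 intervals, 12 reach past 1.3-fold, a count that depends on the size of the differences as well as on precision.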
